A study of Mus musculus with 18 samples.

Results

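The cytosolic ribosomal protein genes are the genes for the protein building blocks of the 80S ribosome outside mitochondria. They were taken from a table of gene counts in mouse pancreas as the protein-coding genes named Rpl or Rps with a number, with Rplp0, Rplp1, Rplp2 and Rpsa added, and without pseudogene names and the Rps6k kinases. This rule found 82 members among 25651 genes, 50 of the large (60S) and 32 of the small (40S) subunit. The rule works on names, so members carry the names of ribosomal proteins and their paralogues by construction. Those names are no check of the label. The ribosomal proteins under other names (Fau, Rack1, Rpl36al) are described separately.

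Snap-frozen pancreas came from 18 mice of 20 weeks, all on the same mixed background of 129Sv and C57BL/6, with 1 library per mouse. The 6 wild-type (WT) mice carry no allele named in the labels. KPC, the genotype label of 7 mice, commonly stands for a Cre-driven pancreatic tumour model, but the labels give neither its alleles, the promoter that drives Cre nor the histology. The 5 KPC ASC KO mice are labelled as KPC mice that also lack ASC, the inflammasome adaptor encoded by Pycard, and no group lacked ASC without KPC. Pycard was lower in KPC ASC KO than in KPC pancreas by a log2 difference of -1.94 (SE 0.35, adjusted p = 0.0043).

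Libraries held 294077 to 416879 counts in WT, 452472 to 1626977 in KPC and 374432 to 647947 in KPC ASC KO. Every WT library was smaller than every KPC library, so depth and genotype cannot be told apart between these groups. Acinar enzyme genes (32 genes for the digestive enzymes that acinar cells secrete) took 51.4% to 62.7% of counts in WT, 4.76% to 43.0% in KPC and 34.9% to 60.5% in KPC ASC KO pancreas. Of these 32 genes, 30 were lower in KPC than in WT and 29 were higher in KPC ASC KO than in KPC, and none was at 0 in every mouse of a group. B cell genes (11 genes, 7 tested) summed to 74.5 to 151 CPM (counts scaled to a fixed library total) in WT, 67.6 to 2244 in KPC and 86.4 to 296 in KPC ASC KO. Of the tested markers, 7 of 9 for macrophages and 6 of 7 for fibroblasts were higher in KPC than in WT. So were 1 of 7 for B cells, 1 of 2 for T cells and 2 of 2 for proliferation. Of 8 duct markers 0 were higher and 1 lower, and of 6 islet markers 0 were higher and 2 lower. Over all tested genes 14.8% were higher and 15.1% lower. In whole tissue, fewer cells of a type and less RNA per cell cannot be told apart, and the part of cell makeup in the results below was not tested beyond the values given beside them.

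The small subunit reads the mRNA and the large subunit joins amino acids, and each ribosome needs 1 copy of nearly every ribosomal protein. The mRNAs are among the most abundant in any cell, and most begin with a run of pyrimidines right at the cap, the terminal oligopyrimidine or TOP motif, through which mTOR signalling and the RNA-binding protein LARP1 control their translation and stability. Acinar cells make more protein per cell than almost any other cell type. Several mammalian ribosomal proteins have a paralogue encoded by a second gene, and nearly all have processed pseudogenes, copies of the mRNA pasted back into the genome.

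The first bases of the mRNA carry that shared control, so the bases around the start sites of some members that changed are shown. Windows of other called members, among them Rpl7l1, Rpl5, Rps23 and Rps18, are not shown. RefSeq start sites on GRCm38.p6 were found for 62 of 82 members. The windows hold 15 bases before and 15 bases after the start, 5′ to 3′ on the coding strand. Capitals mark the longest run that opens with C and continues with C or T for at least 5 bases in all. A run could lie anywhere in the window, so a marked run need not be at the cap. Those of Rps27l and Rps16 lie wholly before the start and so outside the mRNA. Another RefSeq start of Rps27l (chr9:66946398-66946427), with no run of that length, is not shown.
Rps27l (chr9:66946071-66946100, plus strand): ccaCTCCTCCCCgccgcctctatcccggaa
Rps27 (chr3:90213634-90213663, minus strand): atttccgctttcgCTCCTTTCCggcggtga
Rpl38 (chr11:114668565-114668594, plus strand): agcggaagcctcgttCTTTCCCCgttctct
Rpl35 (chr2:39005117-39005146, minus strand): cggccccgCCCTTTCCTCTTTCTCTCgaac
Rpl28 (chr7:4792950-4792979, plus strand): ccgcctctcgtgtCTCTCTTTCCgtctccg
Rps16 (chr7:28350674-28350703, plus strand): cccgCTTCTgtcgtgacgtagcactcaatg
Rpl41 (chr10:128549154-128549183, minus strand): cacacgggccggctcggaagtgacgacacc
Rplp0 (chr5:115559452-115559481, plus strand): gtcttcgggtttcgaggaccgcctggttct
Rpsa (chr9:120127751-120127780, plus strand): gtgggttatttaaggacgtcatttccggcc

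A run of at least 8 bases anywhere in a window was present in 26 of 62 members (41.9%), against 2914 of 27025 genes with a RefSeq start (10.8%). A run of at least 5 bases was present in 41 of 62 members (66.1%), against 40.3% of genes. The search covered the coding strand only, and a match is a description of these letters. Among the windows shown, runs occurred in members that were lower in KPC (Rps27l, Rpl38, Rpl35, Rpl28) and in members that were higher (Rps27, Rps16). Shown windows without a run belonged to Rpl41, Rplp0 and Rpsa, which were lower on the scaled counts used below. In windows not shown, Rps23 and Rps18, lower in KPC on own rows, had runs of 6 and 11 bases. Rpl7l1, also lower, had none of at least 5 bases.

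Members took more of all counts in KPC than in WT pancreas, and about the same share once acinar enzymes were set aside. Their counts made up 2.33% ± 0.32 (SD, n = 6) of all counts in WT, with a lowest, median and highest mouse of 1.90%, 2.28% and 2.82%. In KPC the share was 4.27% ± 0.94 (SD, n = 7), from 3.001% through a median of 4.17% to 5.44%. In KPC ASC KO it was 2.68% ± 0.54 (SD, n = 5), and mice 318, 335, 377, 384 and 388 gave 2.32%, 2.26%, 3.12%, 3.39% and 2.30%. All 7 KPC mice lay above all 6 WT mice, and the KPC ASC KO mice overlapped with WT and with the 2 lowest KPC mice. Of the counts outside acinar enzymes, members held 5.23% ± 0.35 (SD, n = 6) for WT, 5.22% ± 0.56 (SD, n = 7) for KPC and 5.38% ± 0.28 (SD, n = 5) for KPC ASC KO, and the 3 groups overlapped.

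**Figure D1:**
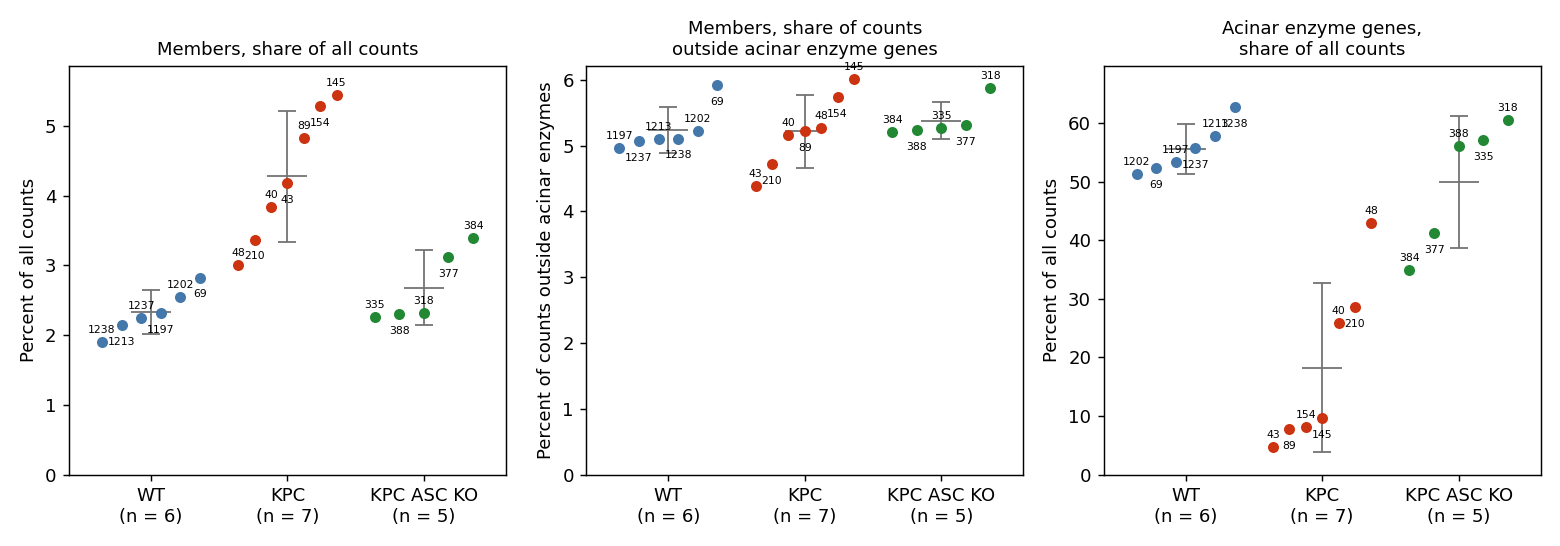
Share of counts in ribosomal protein genes for each mouse (points, with mouse numbers), as percent of all counts (left), as percent of counts outside acinar enzyme genes (middle), and the share of acinar enzyme genes themselves (right); bars are mean ± SD. All 7 KPC mice lie above the 6 WT mice on the left, the groups overlap in the middle panel, and acinar enzymes fall from a mean of 55.6% in WT to 18.2% in KPC.

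For each mouse a score was computed as the mean log2 CPM over the 80 tested members, after scaling by trimmed mean of M values (TMM), which sets the bulk of genes level between libraries. WT mice scored 8.05 ± 0.16 (SD, n = 6), KPC mice 7.88 ± 0.18 (SD, n = 7) and KPC ASC KO mice 8.12 ± 0.14 (SD, n = 5). It ran from 7.92 to 8.37 in WT, from 7.55 to 8.06 in KPC and from 7.97 to 8.34 in KPC ASC KO, so that the 3 groups overlapped. KPC mouse 43, which had the lowest acinar share of all mice (4.76%), had the lowest score. Other KPC mice ran differently: mouse 145, with a share of 9.66%, had the highest KPC score, 8.06, and mouse 210, with 28.7%, had 7.82. For the large subunit WT mice scored 7.89 ± 0.18 (SD, n = 6) and KPC mice 7.68 ± 0.17 (SD, n = 7), and the small-subunit score was 8.31 ± 0.13 and 8.18 ± 0.19.

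Reads from a ribosomal protein mRNA can also fall on near-identical pseudogenes, which are separate rows of the table. By sequence match, 1113 such rows were found for 80 of the 82 members. They held 721967 counts against 390904 in the members' own rows, and 56 members had more counts in their copies than in their own row. With copies added, the family's share of all counts was, for WT, 6.22% ± 1.12 (SD, n = 6), for KPC 12.4% ± 2.94 (SD, n = 7) and for KPC ASC KO 7.24% ± 1.51 (SD, n = 5). Calls for KPC against WT and for KPC ASC KO against KPC are therefore given for own rows and for rows summed with copies. Log2 differences with copies are given for some members only. A change seen only in the own row is uncertain.

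The comparison of KPC with WT asks how the tumour model alters these genes. Of 80 tested members, 3 were higher in KPC (Rps27, Rps16 and Rps29) and 16 were lower, led by Rplp1, Rps27l, Rpl38, Rpl7l1, Rpl41 and Rpl28. Over all 6920 tested genes, 14.8% were higher and 15.1% were lower, so the share of members that fell (20%) was near the background and the share that rose (3.75%) was below it. The members' median log2 difference was -0.18 against 0.06 over all genes, and 56 of 80 members had a value below 0. The members' median was -0.11 without WT mouse 69 and -0.11 without KPC mouse 43. The split depended on the scaling: with total counts in place of TMM, 74 members were higher and 0 lower (79.6% and 2.54% of all genes), and the median of all genes moved to 1.41 with the members at 1.13. With upper-quartile scaling 8 were higher and 11 lower (18.8% and 12.5% of all genes). The members' median lay below that of all genes by 0.24 under TMM and by 0.28 under total counts.

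Summed with their copies, 1 member was higher and 19 were lower, against 15.2% higher and 15.9% lower of the genes tested in that way. Of the calls on own rows, 12 of the 16 lower members and 1 of the 3 higher members, Rps27, were also called with copies. Rplp1, Rpl21, Rps18 and Rps23 among the lower members and Rps16 and Rps29 among the higher ones were called on the own row only. Rpl10, Rpl17, Rpl22l1, Rpl24, Rpl29, Rpl3 and Rpl36a were called lower only with copies. By subunit, 9 of 48 large-subunit members were lower and 0 higher, with a median of -0.22, and 7 of 32 small-subunit members were lower and 3 higher, with a median of -0.12. When libraries were scaled on the members and their copies themselves, so that each member was read against the other members, 9 were higher and 9 lower (20.9% and 10.1% of all genes).

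**Figure D2:**
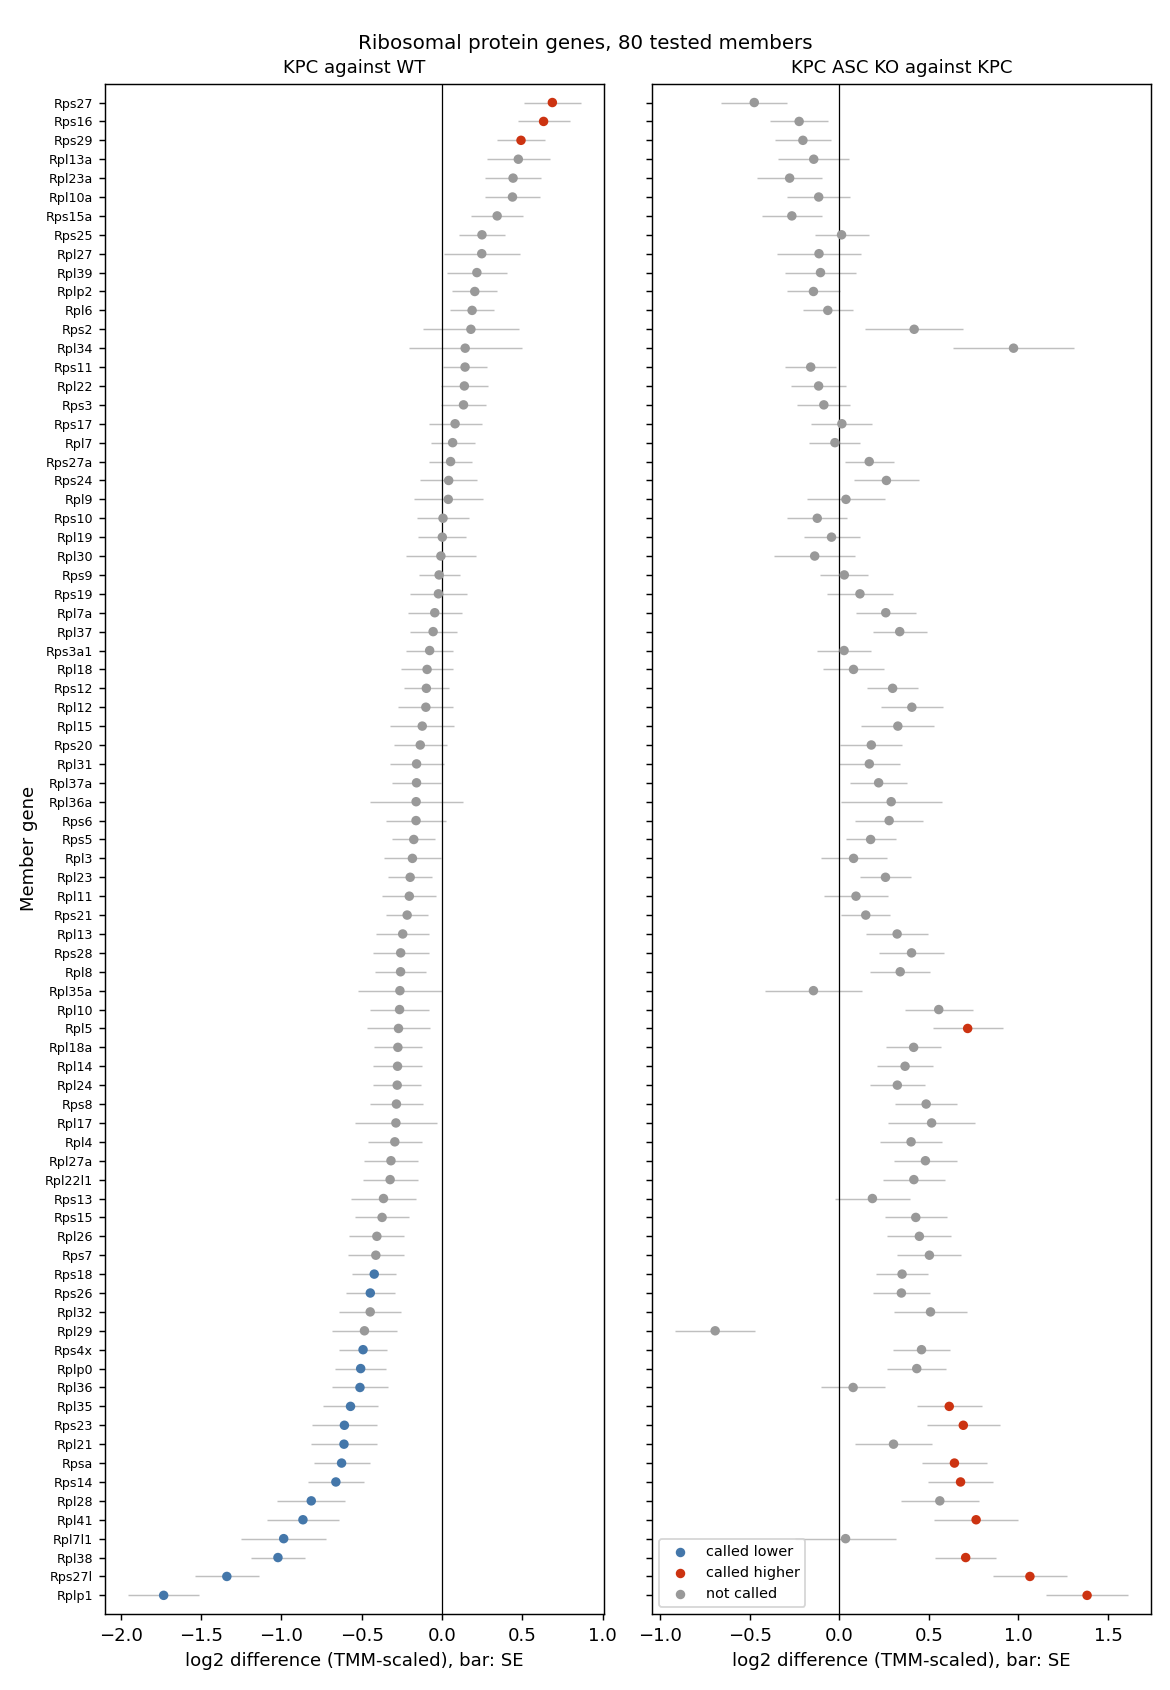
Log2 difference of each tested member (rows, ordered by KPC against WT) in KPC against WT (left) and KPC ASC KO against KPC (right) after TMM scaling, with SE bars; colour marks an adjusted p under 0.05. Most members lie left of 0 on the left and right of 0 on the right, and with total-count scaling 74 members were instead higher in KPC than in WT.

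With the acinar enzyme level of each mouse as a covariate, 0 members and 0 of the 6920 genes were called by edgeR in KPC against WT, and the members' median was 0.04. The acinar share did not overlap between WT (51.4% to 62.7%) and KPC (4.76% to 43.0%), so this fit cannot separate acinar level from genotype. Leaving out KPC mice 40, 89, 145 and 154, whose B cell genes were high, 3 members were lower (Rplp1, Rps27l and Rpl38) and 0 higher, or 3.75% and 0% of members, against 5.91% lower and 6.94% higher of all 5852 genes tested. With B cell genes as the covariate, 19 were lower and 2 higher, against 13.2% and 11.7% of all genes. The 3 higher members became 8 without KPC mouse 43 and 5 without KPC mouse 48 or 210 or WT mouse 69, with 15.6%, 16.2%, 15.4% and 11.4% of all genes higher in these 4 fits.

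Rps27l, the paralogue of Rps27 that is known as a p53 target gene and is built into the small subunit in place of its sister, fell in KPC. It lies on chromosome 9 at 66946086 to 66949516, and 12.2% of its family's counts fell on copies, fewer than for most members. Its TMM-scaled level was 364 to 455 CPM (median 424) in the 6 WT mice and 116 to 307 CPM (median 141) in the 7 KPC mice. In KPC ASC KO mice 318, 335, 377, 384 and 388 stood at 393, 453, 250.5, 247 and 410 CPM. All KPC mice lay below all WT mice, and KPC mouse 48, at 307 CPM, was the only one that reached the KPC ASC KO range. The log2 difference between KPC and WT was -1.34 (SE 0.20, adjusted p = 8.05e-05), and -1.33 (SE 0.20, adjusted p = 0.000123) with copies. With total-count scaling it was -0.11 (SE 0.19, adjusted p = 0.59), against a median of 1.41 over all genes.

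Rps27 itself moved the other way. Its level was 123 to 212 CPM (median 133) in WT and 156 to 332 CPM (median 224) in KPC, and the 2 groups overlapped through WT mouse 1238. The log2 difference was 0.69 (SE 0.18, adjusted p = 0.0064), 0.54 (adjusted p = 0.014) with copies and 2.08 with total-count scaling. Without KPC mice 40, 89, 145 and 154, Rps27 kept its direction but was not called. The same 5 KPC ASC KO mice stood at 180, 141, 200.4, 169 and 152 CPM.

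The ratio of the paralogues within a library does not depend on the scaling. On own rows, WT mice held 1.92 to 3.56 counts of Rps27l for each count of Rps27. Of the KPC mice, 6 of 7 held 0.425 to 0.902, while KPC mouse 48 held 1.96. The KPC ASC KO mice held 2.18 (mouse 318), 3.19 (mouse 335), 1.25 (mouse 377), 1.46 (mouse 384) and 2.67 (mouse 388). The mean log2 ratio was, for WT, 1.53 ± 0.31 (SD, n = 6), for KPC -0.51 ± 0.75 (SD, n = 7) and for KPC ASC KO 1.02 ± 0.57 (SD, n = 5). The difference between KPC and WT was -2.04 (two-sided exact permutation p = 0.0017, adjusted to 0.013 over 9 tests on 3 paralogue pairs). KPC ASC KO differed from KPC by 1.52 (exact p = 0.0076, adjusted p = 0.016), and from WT by -0.52, which did not pass (exact p = 0.095, adjusted p = 0.12). Copies held 80.3% of the Rps27 family's counts, so own-row ratios do not show which family held more counts. With copies, the mean log2 ratio was -0.75 for WT, -2.64 for KPC and -1.24 for KPC ASC KO, and negative in every mouse. The difference between KPC and WT was then -1.89 (exact permutation adjusted p = 0.0052). Between KPC ASC KO and KPC it was 1.40 (exact permutation adjusted p = 0.016).

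The ratio and the acinar share of the tissue ran together in some mice and apart in others. KPC mouse 48, with the highest ratio in its group, had an acinar share of 43.0%, the highest of the KPC mice, and KPC mouse 210 followed with a ratio of 0.902 and a share of 28.7%. KPC mouse 43 came next with a ratio of 0.731 although its share, 4.76%, was the lowest of all mice, and KPC mouse 40 had 0.643 with a share of 25.8%. KPC mice 89, 154 and 145 had the lowest ratios, 0.517, 0.469 and 0.425, with shares of 7.72%, 8.07% and 9.66%. Mice 40, 89, 145 and 154 were also those with high B cell genes, at 935 to 2244 CPM against 67.6 to 191 CPM in KPC mice 43, 48 and 210. WT mouse 1238 had the highest share of all mice, 62.7%, and the lowest WT ratio. KPC ASC KO mice 377 and 384, with the lowest ratios in their group, had the lowest shares, 41.2% and 34.9%, but mouse 318, with the highest share of that group (60.5%), lay below mice 335 and 388 in its ratio. The parts of the acinar share and of B cells in the ratio were not tested. With the acinar level as a covariate, the log2 difference of Rps27l between KPC and WT was -0.52 (SE 0.24, adjusted p = 0.55).

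**Figure D3:**
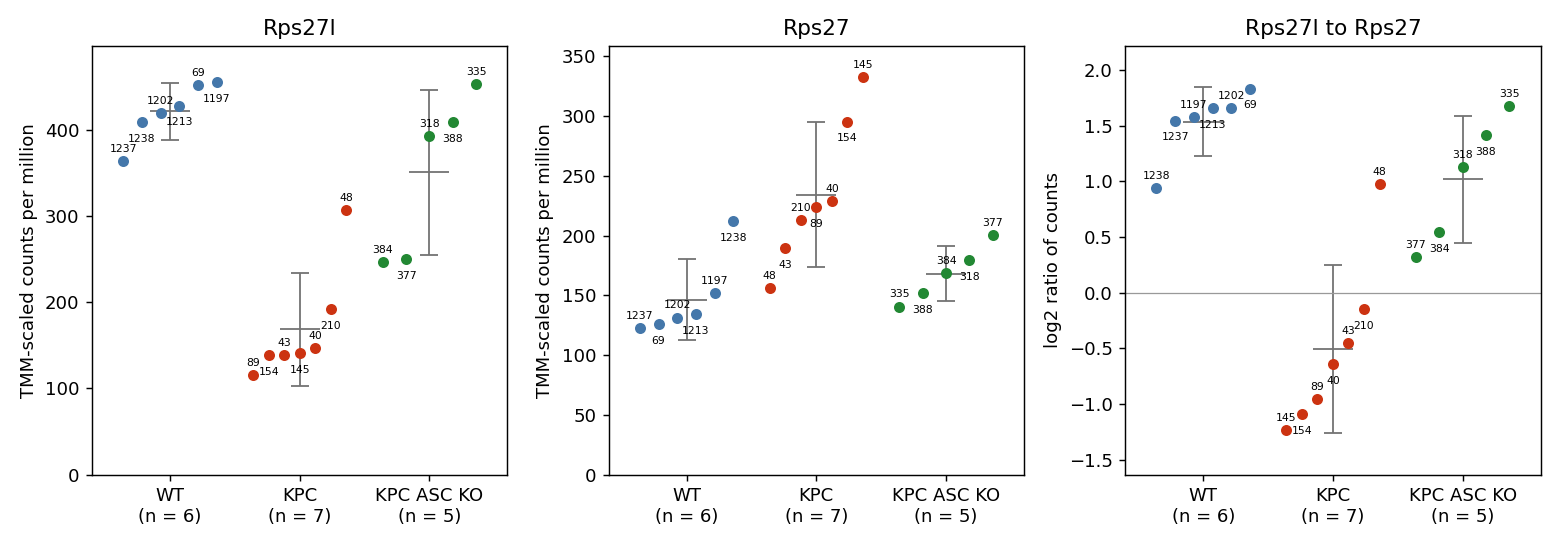
Levels of Rps27l (left) and Rps27 (middle) in TMM-scaled CPM, and the log2 ratio of their own-row counts (right), for each mouse (points, with mouse numbers). Bars are mean ± SD. The 7 KPC mice lie below the 6 WT mice for Rps27l, and KPC mouse 48 lies nearest to WT in all 3 panels.

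Of 12 listed p53 targets and regulators, 7 were tested. Trp53 (log2 1.48, SE 0.41, adjusted p = 0.0094) and the cell death gene Bax (0.66, SE 0.25, adjusted p = 0.049) were higher in KPC, and 0 of 7 were lower. Over all genes 14.8% were higher and 15.1% lower. Under total counts all 7 were higher, with a median of 1.61, against 79.6% of all genes higher. Ccng1, a p53 target, had a log2 difference of -0.42 (SE 0.23, adjusted p = 0.18), and Mdm2, the ligase that degrades p53, one of 0.25 (SE 0.33, adjusted p = 0.60). Members that bind Mdm2 in ribosomal stress did not pass: Rpl5 had -0.27 (adjusted p = 0.30), Rpl11 -0.20 (adjusted p = 0.38) and Rpl23 -0.20 (adjusted p = 0.29).

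Rpl7l1 is a paralogue of Rpl7 that acts in building the large subunit. It stood at 51.3 to 123 CPM (median 57.9) in WT, 25.5 to 57.6 CPM (median 33.7) in KPC and, in KPC ASC KO, at 31.3, 35.2, 57.5, 25.97 and 25.3 CPM in mice 318, 335, 377, 384 and 388. KPC and WT overlapped only through KPC mouse 48, and KPC ASC KO mice lay in the KPC range apart from mouse 388 just under it. The log2 difference between KPC and WT was -0.99 (SE 0.26, adjusted p = 0.0074), with 0.31 under total counts. Its log2 ratio to Rpl7 was lower in KPC than in WT by a difference of -1.01 (exact two-sided permutation p = 0.0029, adjusted p = 0.013) and in KPC ASC KO than in WT by a difference of -0.98 (exact p = 0.0065, adjusted p = 0.016). KPC ASC KO and KPC differed by 0.02 (exact p = 0.95). For Rpl22l1 to Rpl22, the difference between KPC and WT was -0.47 and did not pass (exact p = 0.073, adjusted p = 0.11), but with copies it was -0.70 and passed (exact p = 0.0012, adjusted p = 0.0052), while KPC ASC KO lay above KPC by 0.54 (exact p = 0.0088, adjusted p = 0.016). Rpl3l, the muscle paralogue of Rpl3, and Rpl39l, the germ-cell paralogue of Rpl39, were too low to test.

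Rpl38, a large-subunit protein known for its part in the translation of Hox mRNAs, was at 114.5 to 190 CPM (median 153) in WT and 62.2 to 102 CPM (median 71.9) in KPC, and these groups did not overlap. The KPC ASC KO mice stood at 105, 117, 113, 115 and 152 CPM, above every KPC mouse. The difference between KPC and WT was -1.02 (SE 0.17, adjusted p = 0.00018), -0.88 (SE 0.17, adjusted p = 0.00081) with copies and 0.30 under total counts. Rpl41, the shortest ribosomal protein, was at 3007 to 4237 CPM (median 3420) in WT and 1324 to 2753 CPM (median 1900) in KPC, again without overlap. Its difference was -0.87 (SE 0.22, adjusted p = 0.0060), and 0.42 under total counts.

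The stalk of the large subunit, which recruits elongation factors, is built from Rplp0, Rplp1 and Rplp2. Rplp0, its base, was lower in KPC (log2 -0.51, SE 0.16, adjusted p = 0.018; 0.78 under total counts), at 579 to 929 CPM against 899 to 1239 CPM in WT, 2 ranges that overlapped at 1 end. Rplp2 had a difference of 0.20 (SE 0.14, adjusted p = 0.28). Rpsa, which also serves as the laminin receptor at the cell surface, was lower with -0.63 (SE 0.17, adjusted p = 0.0097; 0.62 under total counts). Rps14 had -0.66 (SE 0.17, adjusted p = 0.0068; 0.61 under total counts) and Rpl28 -0.81 (SE 0.21, adjusted p = 0.0061; 0.46 under total counts). Rps6, the substrate of S6 kinase (-0.16, adjusted p = 0.54), Rps19, the protein most often mutated in Diamond-Blackfan anaemia (-0.02, adjusted p = 0.94), and Rps27a, made as a fusion with ubiquitin (0.05, adjusted p = 0.79), did not pass.

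Rplp1 had the largest difference of all members on its own row, and the difference was smaller and not called when its copies were counted. Its own row stood at 1644 to 4004 CPM (median 3331) in WT, 565 to 1243 CPM (median 921) in KPC and 2841, 2383, 2282, 2283 and 2521 CPM in the KPC ASC KO mice. KPC lay below the other groups without overlap, and the log2 difference from WT was -1.73 (SE 0.22, adjusted p = 2.76e-05). Summed with its copies the difference was -0.57 (SE 0.23, adjusted p = 0.062).

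The share of the Rplp1 family's counts that fell on the Rplp1 row took 3 separate levels among the mice. It was 69.3% to 72.8% in 5 WT mice and 28.6% in WT mouse 69. In all 7 KPC mice it was 25.8% to 28.9%. In KPC ASC KO it was 73.8% in mouse 377 and 72.3% in mouse 384, and 45.7%, 44.8% and 48.1% in mice 318, 335 and 388. The highest level was thus shared by 5 WT and 2 KPC ASC KO mice, the lowest by all KPC mice and WT mouse 69, and the intermediate one by 3 KPC ASC KO mice. For Rpl34 the own row held 5.51% to 13.1% in 5 WT mice and 17.7% in WT mouse 69, 8.20% to 9.21% in KPC mice 89, 145, 154 and 210, 20.9% to 23.2% in KPC mice 40, 43 and 48, and 21.7% to 32.4% in KPC ASC KO. Why reads divided differently between a gene and its copies was not tested.

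**Figure D4:**
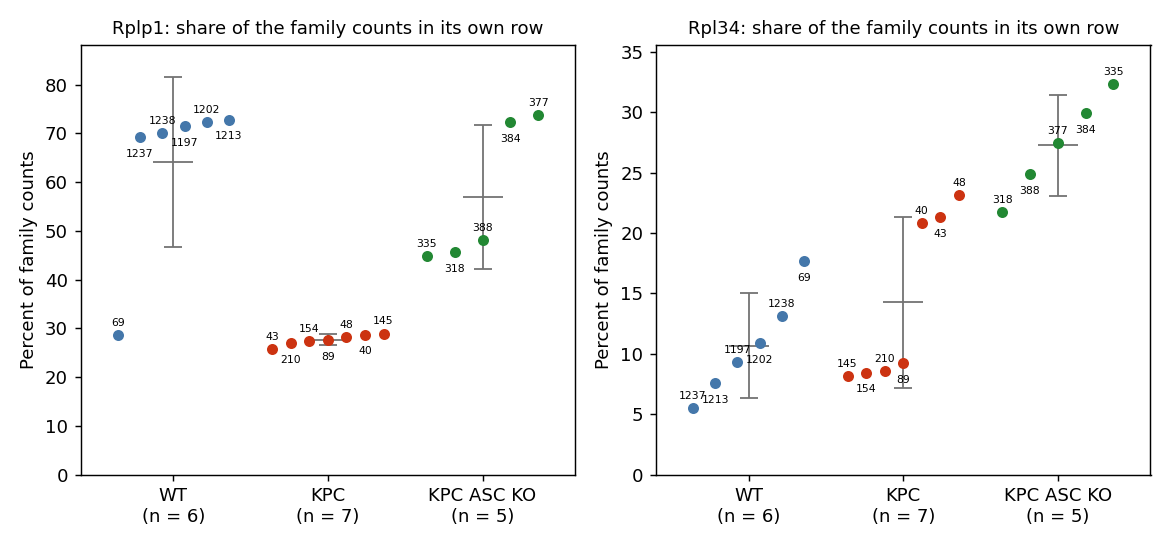
Percent of the counts of a gene and its near-identical copies that fell on the gene's own row, for Rplp1 (left) and Rpl34 (right), in each mouse (points, with mouse numbers); bars are mean ± SD. For Rplp1 the mice lie at about 3 levels, with WT mouse 69 at 28.6% beside the 7 KPC mice at 25.8% to 28.9%.

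**Figure D5:**
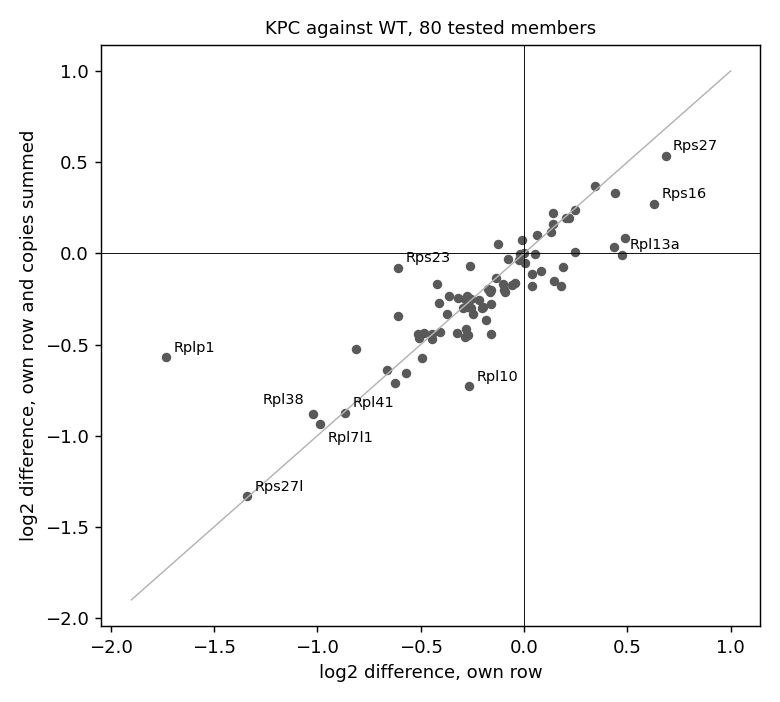
Log2 difference between KPC and WT (TMM scaling) of each of the 80 tested members on its own row (x axis) against the same for the row summed with its copies (y axis); the grey line marks equal values. Rplp1 lies far from the line, at -1.73 and -0.57, while Rps27l lies on it, at -1.34 and -1.33.

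The comparison of KPC ASC KO with KPC asks what loss of ASC changes in the tumour model. Of 80 members, 9 were higher in KPC ASC KO (11.25%) and 0 lower, against 6.73% higher and 2.69% lower over all genes. At an unadjusted p under 0.05, 32 were higher and 2 lower (13.7% and 12.7% of all genes). DESeq2 called 13 higher and 0 lower (7.79% and 3.92% of all genes) and limma-voom 10 higher and 0 lower (8.31% and 1.20%). The members' median log2 difference was 0.26 against -0.05 over all genes. Under total counts the median was -0.85 against -1.14 over all genes, with 66 members lower and 0 higher (73.0% and 2.05% of all genes). Summed with copies, 8 were higher and 0 lower (7.11% and 2.64% of all genes), and 7 of the 9 were among them. Rplp1 and Rps23 were called on the own row only and Rpl10 only with copies.

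The 9 higher members were Rplp1, Rps27l, Rpl41, Rpl5, Rpl38, Rps23, Rps14, Rpsa and Rpl35. Rps27l rose by a log2 difference of 1.06 (SE 0.21, adjusted p = 0.0053; -0.03 under total counts) and Rpl38 by 0.71 (SE 0.17, adjusted p = 0.015; -0.38 under total counts). Rpl5, which binds the 5S rRNA and Mdm2, was at 205, 160, 145, 128 and 203 CPM in KPC ASC KO mice 318, 335, 377, 384 and 388 and at 77.7 to 113 CPM (median 109) in KPC, without overlap. Its difference was 0.72 (SE 0.20, adjusted p = 0.025; -0.42 under total counts), and it was the only one of the 9 that was not called between KPC and WT. Rpl41 (0.76, SE 0.23, adjusted p = 0.041), Rps14 (0.68, SE 0.18, adjusted p = 0.023), Rpsa (0.64, SE 0.18, adjusted p = 0.030) and Rpl35 (0.61, SE 0.18, adjusted p = 0.035) were higher, and each was lower under total counts, at -0.37, -0.43, -0.44 and -0.51. Rplp1 had 1.38 (SE 0.23, adjusted p = 0.0030) on its own row and 0.46 (adjusted p = 0.23) with copies.

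The count of 9 changed when single mice were left out. Without KPC ASC KO mouse 318, 335 or 388, the 3 with acinar shares of 56.0% to 60.5%, 3, 3 and 2 members were higher, and the share of all genes called higher also fell, to 2.21%, 1.78% and 2.31%. Without KPC mouse 89, 145 or 154, 3, 4 and 5 were higher, against 4.17% to 4.24% of all genes. Without KPC mouse 48, the KPC mouse richest in acinar enzymes, 17 were higher and 2 lower, against 9.59% and 5.58% of all genes. Without KPC mouse 43 or 210, 1 was lower, against 5.62% and 4.38% of all genes. Without KPC mice 40, 89, 145 and 154 together 0 members were called, and of all 5852 genes tested 0 were higher and 1 lower. With the acinar level as a covariate 0 members and 0 of 6920 genes were called. The comparisons of KPC with WT and of KPC ASC KO with KPC share the KPC mice, so that their opposite directions are not independent.

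Between KPC ASC KO and WT, edgeR called 0 of 80 members and 0% of all genes. At an unadjusted p under 0.05, 3 members were higher and 3 lower (5.64% and 4.35% of all genes). DESeq2 called 1, Rpl29, lower, and 3 higher and 5 lower over all genes, and limma-voom called 0 of either. The members' median was 0.06 against 0.00 over all genes. Rpl29 had the smallest p, with a log2 difference of -1.18 (SE 0.24, adjusted p = 0.11), and it was -0.22 (adjusted p = 0.64) with its copies. Rpl34 had 1.12 (SE 0.38, adjusted p = 0.33) and -0.12 with copies, Rpl7l1 -0.95 (SE 0.31, adjusted p = 0.32), Rps16 0.41 (adjusted p = 0.45) and Rpl36 -0.43 (adjusted p = 0.45).

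Other genes of protein synthesis were read in the same fit. Directions are under TMM scaling; with total counts no gene of these lists was called lower in KPC than in WT or higher in KPC ASC KO than in KPC. In KPC against WT, 12 of 35 initiation factor genes were lower and 1 higher (median -0.27, and 27 higher with a median of 1.03 under total counts), among them Pabpc4, a poly(A)-binding protein (-1.58, SE 0.27), Eif2b2, of the factor that recharges eIF2 (-1.32, SE 0.28), Eif3j1 (-1.05, SE 0.24) and Eif5b, which joins the subunits (-0.89, SE 0.16). Of 11 genes listed under elongation, Tpt1 among them beside the elongation factors, 3 were lower and 0 higher (median -0.40, and 11 higher with 0.90 under total counts). The lower ones were Eef1a1, which delivers aminoacyl-tRNA (-0.45, SE 0.15), Eif5a (-0.53, SE 0.18) and Tpt1 (-0.47, SE 0.17). Of 14 genes of growth signalling to translation 5 were lower and 0 higher (median -0.50, and 8 higher with 0.86 under total counts). They included Eif4ebp1, the brake on cap binding (-1.60, SE 0.26), Larp1, the TOP mRNA-binding protein (-1.39, SE 0.23), the translation inhibitor Pdcd4 (-1.41, SE 0.31) and Rps6kb1, S6 kinase (-1.20, SE 0.19). Of the 3 tested ribosomal proteins under other names 1 was lower, Rpl36al (-0.79, SE 0.18; 0.53 under total counts).

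Ribosome biogenesis genes make and fold the rRNA and assemble the subunits in the nucleolus. Of 47 such genes 3 were lower in KPC and 0 higher (median 0.11, and 43 higher with 1.49 under total counts), Nop10, Bop1 and Wdr43, with log2 differences of -0.68, -0.89 and -0.68. Of 66 mitochondrial ribosomal protein genes 12 were lower and 1 higher (median -0.24, and 50 higher with 1.09 under total counts), with Mrps34 at -1.22 (SE 0.25), Mrps24 at -1.14 (SE 0.18) and Mrps21 at -0.83 (SE 0.18). All these counts stand against the same 15.1% lower and 14.8% higher of all genes.

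Between KPC ASC KO and KPC, 4 of 35 initiation, 4 of 11 elongation, 3 of 14 growth signalling, 2 of 66 mitochondrial and 1 of 3 other-named ribosomal genes were higher, and 0 of 47 biogenesis genes were called. None of these lists had a lower gene. These counts stand against 6.73% higher and 2.69% lower of all genes. Under total counts 24, 10, 9, 49, 3 and 41 genes of these 6 lists were lower and none higher. Pdcd4 (1.58, SE 0.31), Pabpc4 (1.49, SE 0.28), Eif4ebp1 (1.19, SE 0.26) and Larp1 (1.15, SE 0.24) were higher, as were Eef2, the translocation factor (0.54, SE 0.17), and Tpt1 (0.63, SE 0.18). Between KPC ASC KO and WT no gene of any of these lists was called, and Rps6kb1 had -1.03 (SE 0.23, adjusted p = 0.13).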

How the data were processed

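Counts of unique molecular identifiers (UMIs) per gene were deposited by the authors for 18 libraries primed at the poly(A) tail, per the labels' protocols. Per the submitters' processing notes, the authors used edgeR 3.36.0 and limma 3.50.0 in R 4.1.2 with builds GRCm38 and mm10. Not given in the sources used here are the aligner, the annotation and how reads that match several places were counted. Members, lists and tests were chosen with earlier results of these data known. The counts as deposited were fitted with edgeR 4.0.16 in R 4.3.3 (filterByExpr with a minimum count of 10, TMM scaling, robust quasi-likelihood test, 3 groups, all 18 mice). Benjamini-Hochberg adjustment ran over 6920 genes, and a gene was called at an adjusted p under 0.05. The fit was also run on simulated counts in which some genes were changed by known folds. Those counts had no shift in acinar share between groups, so they cannot show how the fit handles one. Of the 82 members, 2 (Rpl3l and Rpl39l) did not pass the filter. Labels do not tell litters or sex, so p-values measure the spread between these mice.

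Copies were rows of pseudogenes or predicted genes whose transcript matched a member with blastn 2.17.0 (identity of at least 85%, covering at least 50%, at least 100 bases), using GENCODE transcripts. Summing members with copies, scaling on members and leaving out 4 KPC mice were added after the data were seen. Paralogue ratios are log2 of counts plus 0.5, with exact permutation tests in scipy 1.17.1. Start sites were those of RefSeq on GRCm38.p6. Named members were, per comparison, up to 10 called in each direction by size of change, the 5 with the smallest p where none was called, and the P-proteins, Rpsa, Rps27a, Rps6, Rpl5, Rpl11, Rpl23, Rps19 and the paralogue pairs whatever their result. From each list up to 4 genes with the smallest p were named. Further names (the remaining called members, Rpl34, Rpl29 and Rpl10 beside their copies) were added for completeness.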

Additional observations from a re-analysis of the deposited data

Results flagged for a closer look

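Of 114 groups of values examined for 1 mouse standing apart from the rest of its group, 11 had such a mouse, and chance flags about 5% of groups of this kind. WT mouse 69 stood apart in 4 of them: its score was 8.37 where the other WT mice lay at 7.92 to 8.04, its share of counts outside acinar enzymes was 5.92% against 4.96% to 5.23%, its Rpl34 level was 167 CPM against 35.9 to 80.8, and its Rpl7l1 level was 123 CPM against 51.3 to 67.1. KPC mouse 48 stood apart for Rps27l, at 307 CPM against 116 to 192, and for the ratio of Rps27l to Rps27, at 1.96 against 0.425 to 0.902. Rpl38 stood at 102 CPM in KPC mouse 210 (62.2 to 77.0 in the others) and at 152 CPM in KPC ASC KO mouse 388 (105 to 117). Rpl3 was at 287 CPM in WT mouse 1237 (126 to 176) and Rps27 at 212 CPM in WT mouse 1238 (123 to 152). KPC ASC KO mouse 318 held 5.87% of counts outside acinar enzymes in members, against 5.21% to 5.31%.

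Near-identical copies, which the rule leaves out, held at least 2.85% of counts in every one of 18 libraries, where 3 counts would be at most 0.00102%.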

How the results depend on the processing

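No paired analysis was possible because the groups share no mouse number. Alternatives changed 1 choice at a time. The cause of each change was not tested.

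Under total counts, KPC against WT gave 74 members higher, 0 lower and a median of 1.13, KPC ASC KO against KPC gave 0 higher, 66 lower and -0.85, and KPC ASC KO against WT a median of 0.27. The signs turned in KPC against WT for Rpl10 (1.04), Rpl11 (1.13), Rpl21 (0.70), Rpl22l1 (0.98), Rpl23 (1.12), Rpl28 (0.46), Rpl3 (1.12), Rpl38 (0.30), Rpl41 (0.42), Rpl5 (1.05), Rpl7l1 (0.31), Rplp0 (0.78), Rps14 (0.61), Rps19 (1.32), Rps23 (0.70), Rps6 (1.13) and Rpsa (0.62). They turned in KPC ASC KO against KPC for Rpl10 (-0.59), Rpl11 (-1.04), Rpl22l1 (-0.65), Rpl23 (-0.85), Rpl3 (-1.002), Rpl35 (-0.51), Rpl38 (-0.38), Rpl41 (-0.37), Rpl5 (-0.42), Rpl7l1 (-0.99), Rplp0 (-0.69), Rps14 (-0.43), Rps19 (-0.998), Rps23 (-0.46), Rps27a (-0.93), Rps27l (-0.027), Rps6 (-0.78) and Rpsa (-0.44).

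With the acinar covariate no member was called (0 higher, 0 lower), the medians were 0.041 (KPC against WT) and 0.023 (KPC ASC KO against KPC), and Rplp0 (0.0229), Rps14 (0.038) and Rpsa (0.0239) turned in KPC against WT. The acinar shares of KPC and WT mice did not overlap. In KPC against WT the members higher and lower were 7 and 8 without the low-count filter, 5 and 16 with only the 2 groups in the fit, 8 and 11 with upper-quartile scaling, and 0 and 3 without KPC mice 40, 89, 145 and 154. In KPC ASC KO against KPC, members higher were 5 without the filter, 4 with the 2 groups, 5 with the B cell covariate and 0 without those 4 mice, and 1 was lower with upper-quartile scaling. In KPC ASC KO against WT, 1 was lower with DESeq2 and with the B cell covariate.

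With copies, 1 member was higher in KPC than in WT, shares of all counts were 6.22%, 12.4% and 7.24% in WT, KPC and KPC ASC KO, shares outside acinar enzymes were 13.9%, 15.1% and 14.5%, and the ratio of Rpl22l1 to Rpl22 passed between KPC and WT (-0.70, exact permutation adjusted p = 0.0052). Leaving out 1 mouse at a time gave 3 to 8 members higher and 11 to 19 lower in KPC against WT, and 2 to 17 higher and 0 to 2 lower in KPC ASC KO against KPC. The ratio of Rpl22l1 to Rpl22 between KPC and WT ranged down to -0.69 (without WT mouse 69). Depth limits the lowest members most.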
